A study of Mus musculus with 2 samples.

Results

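The angiopoietin-like and FGF21 hepatokine axis was described here as 9 listed genes: the angiopoietin-like ligands Angptl2, Angptl4 and Angptl6, the fibroblast growth factors (FGFs) Fgf1 and Fgf21, their receptors Fgfr1 and Fgfr4, the co-receptor Klb, and Enho. Members were found by gene symbol in the annotation of the array, which gave 21 probe sets for 8 of the 9 genes, of 18194 genes named on the array. Angptl2 was not analysed here. The livers came from wild-type C57BL/6 females aged 8 weeks, killed 24 h after surgery that was either warm ischemia of both kidneys for 30 min followed by reperfusion (acute kidney injury, AKI) or sham. RNA from the combined livers of 3 animals per condition was hybridised to an Affymetrix mouse array, which gave 1 AKI array and 1 sham array, with no replicate, no test and no p-value. "Higher" and "lower" describe these 2 pools only, and mouse-to-mouse spread within a pool cannot be seen.

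Hepatokines are proteins that the liver releases into blood to act on other organs or on itself. ANGPTL4 inhibits lipoprotein lipase, the enzyme that releases fatty acids from circulating triglyceride, and its gene is a known target of the PPAR nuclear receptors, of glucocorticoids and of hypoxia. FGF21 is a hormone of fasting and cell stress that needs beta-klotho (the product of Klb) beside FGFR1 on its target cells, whereas hepatocytes carry FGFR4 with beta-klotho, the receptor pair through which intestinal FGF15 (FGF19 in humans) represses bile acid synthesis. Adropin, the secreted peptide of Enho, is made in liver and brain and has been tied in mice to glucose and lipid handling.

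The upstream sequences are shown for Fgf21, because its promoter is known to carry a site for the stress factor ATF4 and ATF4 genes were measured on the same arrays, and for Klb and Fgfr4, because they encode the hepatocyte receptor pair. Each is the 250 bases before the RefSeq start (build GRCm38.p6), written 5′ to 3′ along the gene's strand, and capitals mark matches to any of 5 motifs on either strand.
Fgf21, chr7:45615491-45615740, minus strand: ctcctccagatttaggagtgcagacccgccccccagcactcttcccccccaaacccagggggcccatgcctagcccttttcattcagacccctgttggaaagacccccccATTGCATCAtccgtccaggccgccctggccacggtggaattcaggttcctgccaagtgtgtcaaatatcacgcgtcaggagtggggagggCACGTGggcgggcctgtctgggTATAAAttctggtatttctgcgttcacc
Klb, chr5:65348161-65348410, plus strand: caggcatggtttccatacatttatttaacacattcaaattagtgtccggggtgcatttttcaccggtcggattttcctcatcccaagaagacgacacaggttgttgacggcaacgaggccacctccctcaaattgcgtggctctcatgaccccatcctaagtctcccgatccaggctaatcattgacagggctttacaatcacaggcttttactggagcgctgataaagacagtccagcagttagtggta
Fgfr4, chr13:55152568-55152817, plus strand: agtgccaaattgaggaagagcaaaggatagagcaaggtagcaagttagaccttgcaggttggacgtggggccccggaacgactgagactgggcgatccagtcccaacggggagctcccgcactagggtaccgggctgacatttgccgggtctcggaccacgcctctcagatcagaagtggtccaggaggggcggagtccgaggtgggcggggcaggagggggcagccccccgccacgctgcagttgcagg

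The motifs searched were the C/EBP-ATF response element TGATGNAAT, the E-box CACGTG, the TATA box TATAAA, the nuclear receptor core AGGTCA and the cyclic AMP element TGACGTCA. Fgf21 held the C/EBP-ATF element on the opposite strand, 140 to 132 bases before the start. The same window held an E-box 50 to 45 bases and a TATA box 28 to 23 bases before the start, and no 2 of these matches overlapped. Of 32851 RefSeq promoter windows of this length, 0.816% held the C/EBP-ATF element, 6.02% the E-box, 12.4% the TATA box, 14% the nuclear receptor core and 1.55% the cyclic AMP element. None of the 5 motifs was found in the windows of Klb, Fgfr4 or Angptl6, which says only that these letters are not in those bases.

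The deposited values are signal intensities in arbitrary units, scaled by the authors to the same trimmed mean on each array. Each difference below is the AKI value minus the sham value of log2(signal + 71.8), a scale that shrinks differences between weak signals. A probe set counted as measured if it reached the median of its array on at least 1 array (231.8 for AKI, 225.7 for sham), and a gene stands on its probe set with the highest mean level. Repeat measurements exist only as further probe sets of a gene. Over 5149 genes with several measured ones, the SD of the differences within a gene was 0.70, and between 0.57 and 0.85 in 4 classes of level.

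All 8 genes passed the level filter, with 18 of their 21 probe sets, and the main probe set of each reached it on both arrays. Of the other probe sets, 2 reached it in the AKI pool only and 2 in the sham pool only, so the filter favoured that pool in these 4. On its main probe set Angptl4 was at least 2-fold higher in the AKI pool, Fgf1 and Klb were at least 2-fold lower, and Angptl6, Fgf21, Fgfr1 and Fgfr4 differed by less than 2-fold. The main probe set of Enho was also at least 2-fold lower, but another measured Enho probe set went the opposite way. Counted on main probe sets, that is 1 gene of 8 higher and 3 of 8 lower, where 10.4% of all 13128 measured genes were higher and 12.4% lower by this measure. With the mean of each gene's probe sets, Enho was at -0.98 and 2 of 8 genes were lower. The median of the 8 differences was -0.81, against -0.02 for all measured genes. Of the 18 measured probe sets, 2 were higher and 7 lower by 2-fold or more, against 12.1% and 12.3% of all measured probe sets. The 2 higher ones are both of Angptl4, and the 7 lower ones are of Fgf1, Enho, Klb and Fgfr4. Several share a gene or a target record, so they are not separate evidence. With the arrays centred on 18 hybridization controls the median of all genes was 0.28, and 2211 genes were at least 2-fold higher and 1066 lower. With centring on 10 measured reference genes it was -0.31, with 883 higher and 2531 lower, against 1370 and 1634 under the authors' scaling.

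**Figure D1:**
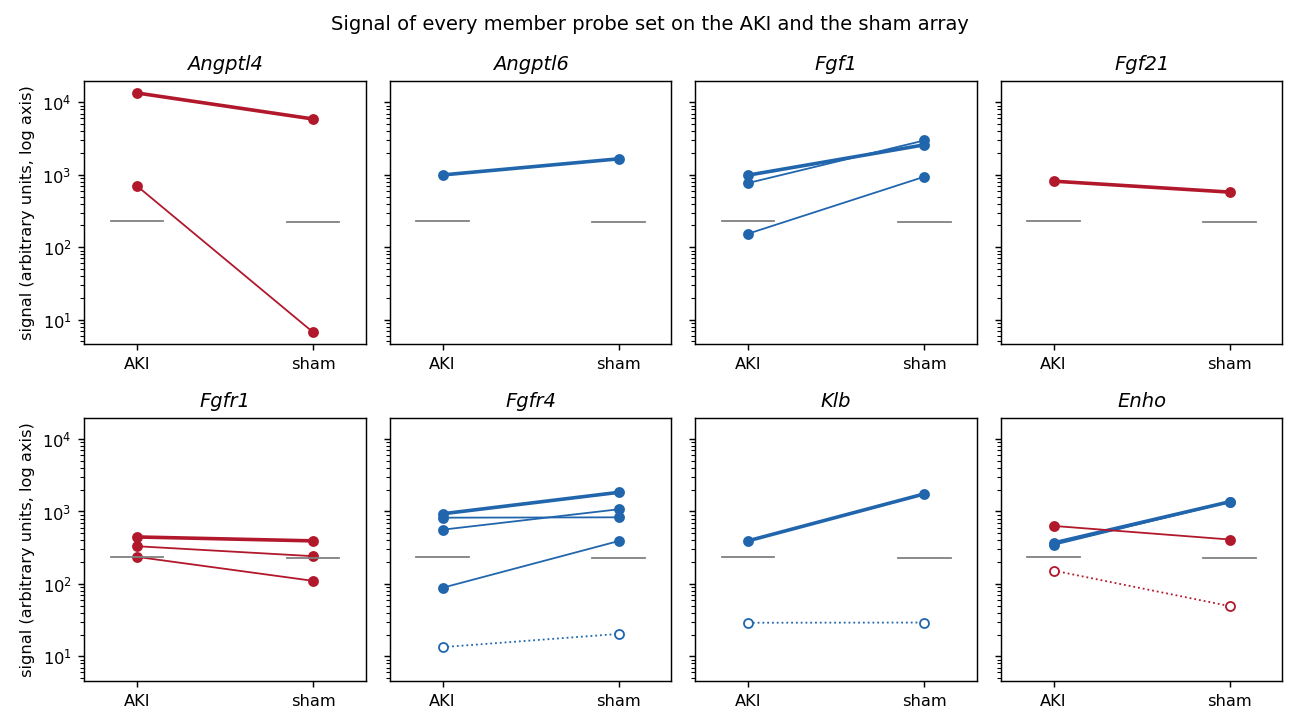
Signal of each probe set (arbitrary units, log axis) on the AKI array (left point) and the sham array (right point), 1 panel per gene. Red lines are higher and blue lines lower in AKI, the thick line is the probe set that stands for the gene, open points with dotted lines are under the level filter on both arrays, and grey bars mark that filter (231.8 for AKI, 225.7 for sham). Under the authors' scaling Angptl4 and Fgfr1 lie higher in AKI and Fgf1 lower in AKI with all of their probe sets (the main one of Fgfr1 was at -0.14 with centring on reference genes), whereas Enho has probe sets that go both ways. Fgfr4 and Klb also lie lower in AKI with all of theirs, though each has a probe set that is nearly level.

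**Figure D2:**
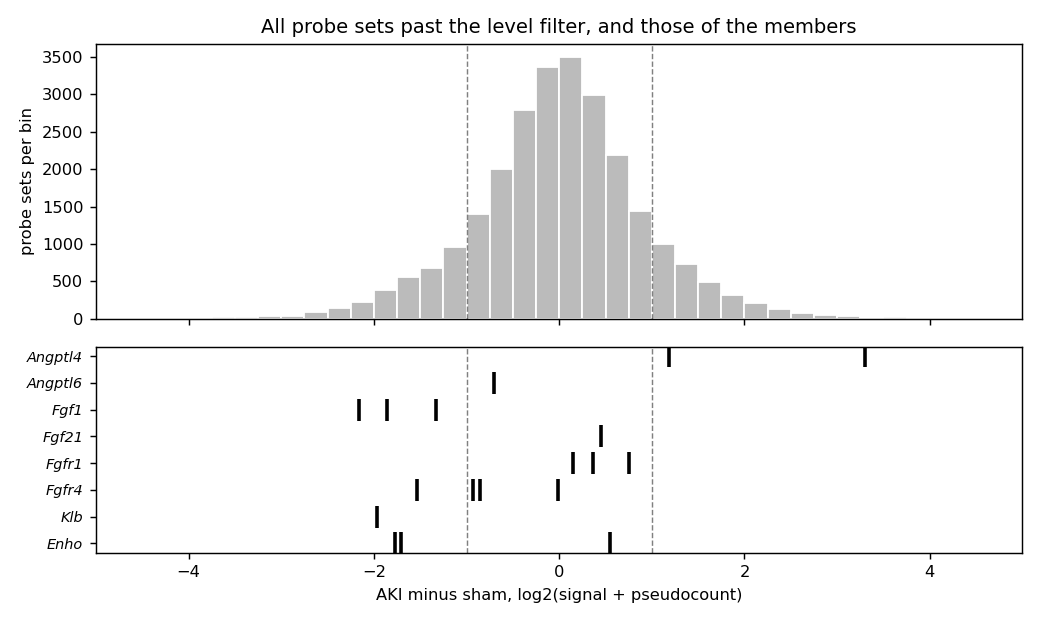
Upper panel: number of probe sets per bin of 0.25 in the AKI minus sham difference (log2 scale), for all probe sets past the level filter. Lower panel: the 18 measured member probe sets, 1 mark each, with dashed lines at 2-fold, outside which 2 lie on the higher and 7 on the lower side. Several of these belong to the same gene.

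Among the angiopoietin-like ligands, Angptl4 was the member that was higher after kidney injury. Its main probe set, 1417130_s_at, had a signal of 13471.7 in the AKI pool and 5897.5 in the sham pool, a ratio of 2.28 and a difference of 1.18. The other, 1453410_at, had 699.9 in the AKI pool and 6.7 in the sham pool, a difference of 3.30. Its sham signal was far below the filter level of 225.7, so the size of that ratio has no firm base. Both probe sets of Angptl4 were higher in AKI, and they lay further apart than the typical SD within a gene of 0.70. The main probe set was under 2-fold, at 0.89, with centring on reference genes.

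Angptl6, which encodes a secreted factor made mainly in liver that opposes obesity and insulin resistance in mice, was lower in AKI by less than 2-fold. Its single probe set had a signal of 995.4 in the AKI pool and 1660.7 in the sham pool, a difference of -0.70. This is about as large as the SD between probe sets of a gene. Of 6 further angiopoietin and angiopoietin-like ligand genes with a probe set, 5 were measured, 0 of them higher and 1 lower by 2-fold or more, with a median of -0.17. Over all measured genes, 10.4% were higher and 12.4% lower. The lower gene was Angpt4, an angiopoietin with weak signals here (89.1 in AKI, 265.2 in sham, -1.07). Angpt4 reached the filter level in the sham pool only. Angptl8, whose product acts with other angiopoietin-like proteins on lipoprotein lipase, had 458.5 in the AKI pool and 493.4 in the sham pool (-0.09). It was named after its values were seen.

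The lipase system on which ANGPTL4 acts had genes on either side. Of 14 measured genes, 1 was higher and 2 were lower by 2-fold or more, close to the shares of all genes (10.4% and 12.4%), with a median of -0.13 that was above 0 with centring on hybridization controls (0.16). Lpl itself, the enzyme that ANGPTL4 inhibits, had 680.3 in the AKI pool and 792.4 in the sham pool (-0.20). Gpihbp1, which anchors the lipase to capillary endothelium, had 2365.8 in the AKI pool and 1879.0 in the sham pool (0.32). Both genes were named after their values were seen. Lipg, the gene of endothelial lipase, was lower, at 222.2 in the AKI pool and 852.7 in the sham pool (-1.65), and its other measured probe set was at -2.13. The AKI signal of the main probe set was under the filter level. Lmf1, whose product is needed for lipases to mature, was lower on its main probe set (-1.03) and at -0.36 on the other. Vldlr, the gene of a lipoprotein receptor, was higher on its main probe set (1.42), but its 3 measured probe sets spanned -0.29 to 1.45. Of 6 measured receptor genes for angiopoietins and angiopoietin-like proteins, 1 was at least 2-fold higher, the syndecan gene Sdc4 (51154.2 in AKI, 16496.8 in sham, 1.63), and 0 were lower. The median of these receptors was 0.21, and it was below 0 with centring on reference genes (-0.08).

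Of the FGF ligands, Fgf1 was lower in AKI with every probe set, while Fgf21 differed little. FGF1 is a growth factor that binds all FGF receptors and lowers blood glucose when given to diabetic mice. Its probe set 1450869_at had a signal of 988.7 in the AKI pool and 2589.9 in the sham pool, a difference of -1.33. Probe set 1423136_at had 769.5 in the AKI pool and 2976.7 in the sham pool (-1.86). The weaker 1441042_at had 153.6 in the AKI pool and 938.7 in the sham pool (-2.16). It reached the filter level in the sham pool only, so its size has no firm base. On the other probe sets the sham signal was 2.62 and 3.87 times the AKI signal. The annotation gives 1450869_at and 1423136_at the same target sequence record, so their similar values are not separate evidence.

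Fgf21, the hormone gene, had 816.9 in the AKI pool and 576.9 in the sham pool on its single probe set. The difference of 0.45 is smaller than the SD of 0.70 between probe sets of a gene, and 74.7% of measured genes had a lower difference. It ran from 0.17 to 0.75 over the alternative scalings and pseudocounts. Of 20 other FGF ligand genes only 10 were measured, with a median of 0.01. Fgf22 (451.5 in AKI, 78.3 in sham, 1.80) was at least 2-fold higher and Fgf10 (57.2 in AKI, 226.2 in sham, -1.21) at least 2-fold lower, both on weak signals. Fgf22 reached the filter level in the AKI pool only and Fgf10 in the sham pool only, so the filter favoured that pool in each. Fgf15, the intestinal ligand of the hepatocyte receptor pair, was named after its values were seen and had 323.3 in the AKI pool and 221.9 in the sham pool (0.43). Fgf15 too reached the filter level in the AKI pool only. Dpp4, which encodes a protease that trims FGF21, was lower on all 4 of its probe sets (-1.98 to -1.09), with main signals of 845.3 in AKI and 2346.6 in sham. It was the only measured gene of the 2 FGF21 proteases listed. The related protease gene Fap was under the level filter.

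The co-receptor gene Klb was lower in AKI, and neither receptor gene reached 2-fold on its main probe set. The main probe set of Klb, 1449568_at, had a signal of 393.6 in the AKI pool and 1747.6 in the sham pool, so that sham was 4.44 times AKI and the difference was -1.97. Only 2.57% of measured genes had a lower difference. The other Klb probe set had 29.1 in the AKI pool and 29.3 in the sham pool, under the level filter on both arrays, so the difference of Klb rests on 1 probe set. In bulk liver, fewer cells that express a gene and less RNA per cell cannot be told apart.

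Fgfr4, the receptor that pairs with beta-klotho in hepatocytes, was lower by slightly less than 2-fold. Its main probe set, 1418596_at, had 930.0 in the AKI pool and 1837.9 in the sham pool (-0.93). The probe sets 1427776_a_at and 1427777_x_at, which share a target record, had 88.5 and 560.7 in the AKI pool, against 390.9 and 1072.6 in the sham pool (-1.53 and -0.86). The first of these was under the filter level in the AKI pool. Probe set 1427846_x_at was nearly level, with 821.4 in AKI and 831.1 in sham (-0.02), and it was above 0 with centring on hybridization controls. The mean of the 4 measured Fgfr4 probe sets was -0.83 ± 0.62 (SD between probe sets). The remaining probe set, 1427845_at, had 13.4 in the AKI pool and 20.4 in the sham pool, under the filter.

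Fgfr1, the receptor that FGF21 uses with beta-klotho in tissues such as fat, had weak signals in both livers. Its probe sets had 445.1, 331.5 and 236.2 in the AKI pool, against 393.1, 241.6 and 110.3 in the sham pool. All 3 differences were above 0, from 0.15 to 0.76, but the main one was below 0 with centring on reference genes (-0.14). The value of 0.76 comes from 1424050_s_at, which reached the filter level in the AKI pool only. All 3 are close to or below the SD of 0.70 within a gene. Of the other FGF receptors, Fgfr2 (-0.82), Fgfr3 (-0.75) and the decoy receptor gene Fgfrl1 (-0.36) were measured and none differed by 2-fold on its main probe set. Once probe sets with suffix s, x or a, which can match several transcripts, were left out, Fgfr2 was at 0.92. These 3 genes were named after their values were seen.

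Enho gave opposite answers on different probe sets. Probe sets 1428739_at and 1452893_s_at had 367.7 and 346.5 in the AKI pool, against 1362.8 and 1352.9 in the sham pool (-1.71 and -1.77). Probe set 1433382_at had 632.1 in the AKI pool and 410.4 in the sham pool (0.55). The weak 1454585_at had 153.0 in the AKI pool and 49.4 in the sham pool (0.89), under the filter. The annotation gives the 2 lower probe sets 1 target record and the 2 higher probe sets another, so the split runs between records. The mean of the 3 measured probe sets was -0.98 ± 1.32 (SD between probe sets). Because the target records went opposite ways, a direction for Enho as a gene was not distinguishable here. Among 6 measured genes of reported Enho regulators and its proposed receptor, 0 were higher and 2 lower by 2-fold, with a median of -0.04. Over all measured genes, 10.4% were higher and 12.4% lower. The 2 lower genes were Nr1h3, the gene of liver X receptor alpha (-1.43), and its target Srebf1 (-1.21). Gpr19, the proposed adropin receptor gene, was at -0.21 and at 0.53 on its other probe set, and was named after its values were seen.

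**Figure D3:**
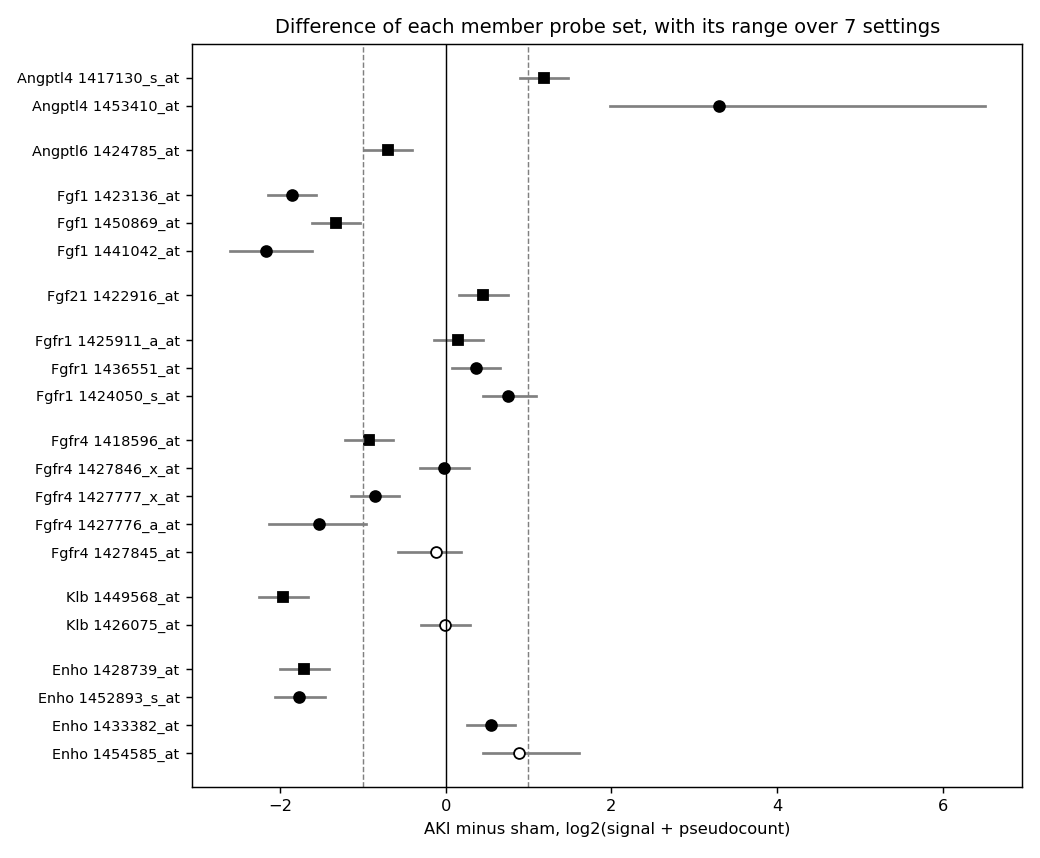
AKI minus sham difference (log2 scale) of each of the 21 member probe sets. Squares stand for the gene, circles are its other probe sets, open symbols are under the level filter, grey bars span the 7 alternative scalings and pseudocounts, and dashed lines mark 2-fold. Bars of Fgf1 and of the main Klb probe set lie wholly beyond 2-fold lower, and the bar of Angptl4 1453410_at runs from 1.98 with the largest pseudocount to 6.51 with the smallest.

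Downstream of the receptors, genes that ERK signalling switches on or that feed back on it differed more often upwards than downwards. Of 14 measured genes, 7 were higher and 1 was lower by 2-fold or more, and the median was 0.98, against 10.4% higher, 12.4% lower and a median of -0.02 over all genes. The largest differences were those of the early transcription factor genes Egr1 (5.38), Myc (2.84) and Fos (2.82), followed by the ERK phosphatase gene Dusp5 (2.04). These genes answer to many receptors besides those of FGFs. The 1 lower gene was the cyclin gene Ccnd1 (1429.7 in AKI, 4512.1 in sham, -1.61), named after its values were seen. Its 3 measured probe sets spanned -1.97 to -1.39. Of the 7 higher genes, 3 reached the filter level in the AKI pool only, Dusp4, Fos and Myc. With no level filter, which keeps these 3 genes and adds the weak Etv4, the FGF-ERK feedback and target genes median was 1.02. Among the feedback genes, Dusp6, an ERK phosphatase gene, had 1569.6 in the AKI pool and 692.3 in the sham pool (1.10). Spry4, a Sprouty inhibitor gene, had 1012.8 in the AKI pool and 557.1 in the sham pool (0.79). These were named after their values were seen. Of 9 measured adaptor and cascade genes, 1 was higher, the ubiquitin ligase gene Cbl (1.42), and 1 lower, the phospholipase gene Plcg1 (-1.75), with a median of -0.06. Probe sets of Cbl spanned -0.25 to 1.42 and those of Plcg1 -1.75 to -0.14, and the main one of Cbl reached the filter level in the AKI pool only.

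Genes of bile acid synthesis and its control, the process that FGFR4 with beta-klotho is known to repress, were lower in AKI beside the receptor and co-receptor genes. All 8 were measured and below 0, 6 of them at least 2-fold lower, with a median of -2.14. Over all measured genes, 12.4% were at least 2-fold lower. Cyp7a1, the rate-limiting enzyme of the classical pathway, had 433.2 in the AKI pool and 11475.1 in the sham pool (-4.52). Cyp8b1, which sets the share of cholic acid, was at -2.62. The list also holds the nuclear receptor genes that control the pathway, among them Nr0b2 at -3.55, which reached the filter level in the sham pool only, and Nr1h4 at -2.31.

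Regulators of the hepatokine genes did not move as one. The counts below stand beside 10.4% higher and 12.4% lower by 2-fold or more over all measured genes. Of 16 measured PPARalpha genes, which include Ppara itself and targets that share this control with Fgf21 and Angptl4, 3 were at least 2-fold higher and 5 lower, with a median of -0.69. Ppara had 1189.2 in the AKI pool and 5001.6 in the sham pool (-2.01), and its 3 probe sets spanned -2.01 to -1.12. Pdk4 (7.13), Cidec (2.98) and Plin2 (2.04), which encode a kinase that spares glucose and 2 lipid droplet proteins, were higher in AKI, as Angptl4 was, and Cidec reached the filter level in the AKI pool only. Most of the list went the other way, with 12 of 16 genes below 0. Besides Ppara, the main probe sets of Hadha (-1.80), Vnn1 (-1.33), Rxra (-1.31) and Cyp4a14 (-1.29) were at least 2-fold lower, genes named after their values were seen. The other measured probe set of Rxra was nearly level, at 0.01. Whether Angptl4 shared a control with any of these PPARalpha genes was not tested. ATF4 binds C/EBP-ATF elements such as the one printed above for Fgf21. Genes of the ATF4 stress response had a median of 0.82 over 18 measured genes, with 8 at least 2-fold higher and 1 lower. Of the 8, 3 reached the filter level in the AKI pool only, Psat1, Atf3 and Eif2ak4. With no level filter, which keeps these 3 genes and adds the weak Slc7a11 and Nupr1, the ATF4 integrated stress response median was 0.64. Atf4 itself had 13047.7 in the AKI pool and 3306.4 in the sham pool (1.96). Psat1, a serine synthesis enzyme gene (3.23), Atf3 (2.97) and the ER stress kinase gene Eif2ak3 (1.87) were also higher. The 1 lower gene was Atf5 (1913.3 in AKI, 5274.2 in sham, -1.43), named after its values were seen. Hypoxia genes had 4 of 12 at least 2-fold higher and 1 lower (median 0.07), and glucocorticoid response genes 5 of 12 higher and 2 lower (median 0.65). Of 13 other hepatokine genes, 3 were higher and 2 lower, with a median of -0.30.

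**Figure D4:**
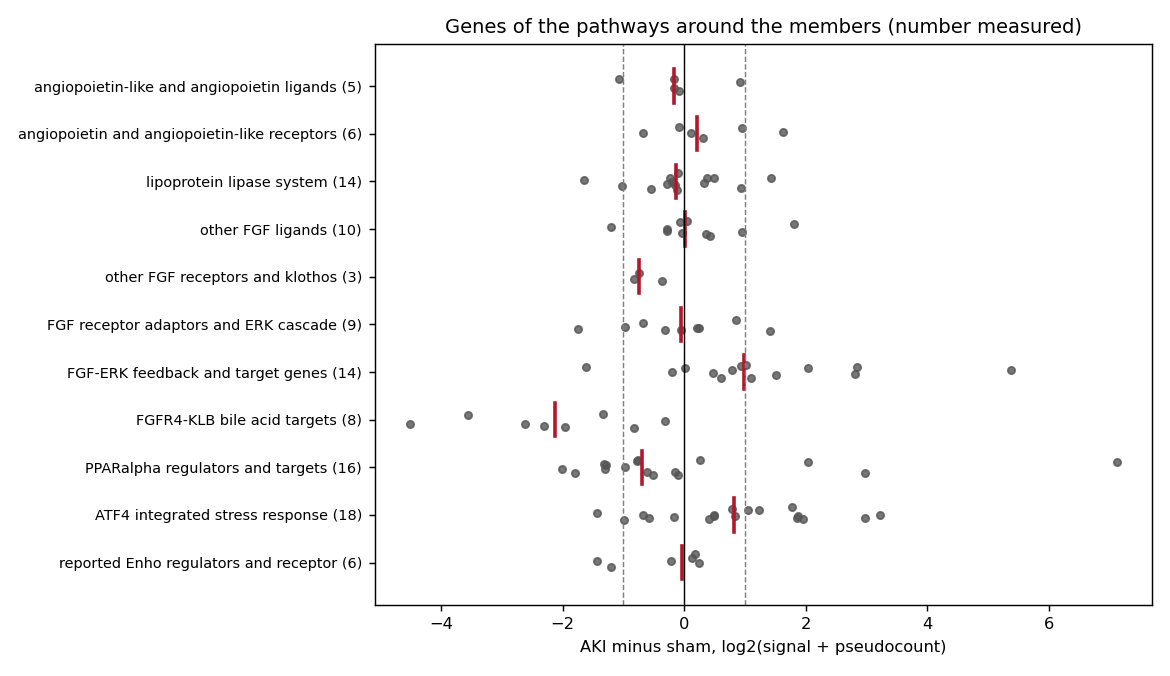
AKI minus sham difference (log2 scale) of each measured gene in the pathways around the members, 1 point per gene, with the number measured in brackets. Red bars are list medians and dashed lines mark 2-fold. The bile acid list has its median at -2.14 and the FGF-ERK feedback list at 0.98, while the lipase list (-0.13) and the other FGF ligands (0.01) lie near 0.

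Marker genes of liver and other cell types were also counted. Their counts stand beside 10.4% higher and 12.4% lower by 2-fold or more over all measured genes. Passing the level filter does not show that a cell type was present, since 5 of 6 listed kidney tubule markers passed it in these liver pools. Most hepatocyte markers were strong in both pools, with Alb at 98303.4 in AKI and 124515.9 in sham, Apoa1 at 73872.8 in AKI and 107427.7 in sham, and Ttr at 87199.9 in AKI and 95020.5 in sham. The summed signal of hepatocyte markers was 490391 in AKI and 548387 in sham over 8 measured of 9 listed genes. None differed by 2-fold, 7 were below 0 and the median was -0.38. The 1 above 0 was Fgb (106882.4 in AKI, 58222.6 in sham, 0.88). Ass1 was weak (185.4 in AKI, 371.4 in sham) and reached the filter level in the sham pool only. Fgb and Ass1 were named after their values were seen. The part of hepatocytes in the lower Klb and Fgf1 was not tested. Of 5 measured neutrophil markers of 8 listed, 4 were at least 2-fold higher in AKI (S100a8, S100a9, Mmp9 and Ngp), with a summed signal of 6926.7 in AKI and 2075.0 in sham, while Cxcr2 was under the filter. Of these 4, 3 reached the filter level in the AKI pool only (S100a8, S100a9 and Mmp9). Most of the FGF-ERK feedback list was higher in AKI too, but 1 array per group cannot show that 2 sets of genes vary together. The part of neutrophils in that list was not tested. Of the 2 measured adipocyte markers of 6 listed, with a summed signal of 3249.2 in AKI and 1653.4 in sham, Fabp4 was higher on its main probe set (2277.9 in AKI, 354.0 in sham) with measured probe sets from 0.37 to 2.46. Retn had 971.3 in AKI and 1299.4 in sham (-0.39). The defining genes Adipoq (167.5 in AKI, 85.3 in sham) and Lep (161.2 in AKI, 35.8 in sham) were under the level filter on both arrays, beside the higher Angptl4, and the part of fat cells in it was not tested. Sinusoidal and other endothelial markers had 1 of 7 at least 2-fold higher (Lyve1, 1.79) and 1 lower (Clec4g, -2.08), with a summed signal of 6148.1 in AKI and 8027.3 in sham. Stellate cell and fibroblast markers had 0 of 9 higher and 1 lower (Lrat, -1.74). Macrophage markers had 1 of 8 higher (Marco, 1.46) and 2 lower (Clec4f at -1.37 and Cd5l at -1.24). Markers of lymphocytes had 1 of 4 higher (Nkg7, 1.27), of cholangiocytes 1 of 2 (Sox9, 2.58), and of kidney tubule, exocrine pancreas and erythroid cells 0 of 5, 0 of 4 and 0 of 1, with none lower. Of 8 listed lymphocyte markers, Cd3e, Cd3g and Cd4 were under the level filter. Of 6 listed cholangiocyte markers, Krt19, Krt7 and Cftr were under it, so Nkg7 and Sox9 do not stand for those cell types. Marco and Nkg7 reached the filter level in the AKI pool only, and Lrat in the sham pool only. Of 10 measured reference genes, 1 was at least 2-fold higher and 0 lower, with a median of 0.29.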

How the data were processed

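The authors deposited 1 linear signal intensity for each probe set (0.6 to 127786.6). The sources used here do not name the software. From the values, the mean of each array trimmed by 2% at either end was 500.00, so the deposited intensity values had been scaled to a common target, which removes any true difference in total mRNA. Per the labels' protocols, biotinylated cRNA came from 8 ug of total RNA of pooled frozen liver. Of 45037 non-control probe sets, 34945 carried 1 gene symbol, 932 several and 9160 none, and the symbols of all 8 member genes matched RefSeq (GRCm38.p6) by Entrez number.

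The pseudocount was the 25th percentile of the table. With 1 array per group the number of arrays limits the precision and nothing was tested. The members, 16 gene lists and 11 marker lists were chosen with earlier results of these data known. Of each list, up to 4 genes with the largest difference beyond 2-fold were named, or all of 5 or fewer, while genes of the hypoxia, glucocorticoid, other hepatokine and reference lists were counted only. The computation was tested on simulated data. Python 3.11.15, numpy 2.4.6, pandas 2.3.3, statsmodels 0.14.6 and matplotlib 3.10.9 were used.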

Additional observations from a re-analysis of the deposited data

How the results depend on the processing

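Results were computed again under up to 11 alternatives, 7 of which (scalings and pseudocounts) apply to single probe sets: 5 other scalings (median centring, quantile normalization, lowess centring, and centring on hybridization controls or on reference genes), 2 other pseudocounts (1 and the table median, 228.7), no level filter or a stricter one (75th percentile), averaging of each gene's probe sets, and no probe sets with suffix s, x or a. The difference of Angptl4 became 2.24 as the mean of its probe sets and 3.30 without suffix s, x or a. Enho became -0.98 as the mean of its probe sets. With centring on reference genes, 0 of the 8 genes were at least 2-fold higher, since Angptl4 was at 0.89. Over all alternatives 2 to 4 genes were at least 2-fold lower. Differences of Fgf1 (-1.78 to -1.03), Klb (-2.26 to -1.67), Fgfr4 (-1.22 to -0.63), Angptl6 (-0.99 to -0.40) and Fgf21 (0.17 to 0.75) kept their sign under every alternative run for them, whereas Fgfr1 ran from -0.14 to 0.45 and did not pass the stricter filter. Fabp4 was at 0.37 and Vldlr reversed to -0.29 without suffix s, x or a. With the table median as pseudocount, 841 genes were at least 2-fold higher and 1063 lower. Higher genes made up 67.5% of such genes when centred on hybridization controls (2211 and 1066) and 25.9% when centred on reference genes (883 and 2531), against 45.6% (1370 and 1634) under the authors' scaling. Beyond these values, the cause of each change was not tested. Weak probe sets, with signals near the pseudocount, limit the sizes given for Angptl4 1453410_at and Enho 1454585_at. No paired analysis was possible because each group has 1 array.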
